A study of Mus musculus with 18 samples.

Results

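Expression of 10 genes of invadopodia and of branched actin assembly was followed in fibroblasts that had entered a collagen gel and in those that had not. They were taken by gene symbol, namely Sh3pxd2b, Sh3pxd2a, Src, Nck1, Cttn, Wasl, Wipf1, Actr3, Actr2 and Fscn1. A gene was measured where a probe set carried its symbol alone, and its brightest such probe set was used. Of the 10 genes, 9 had one, out of 19938 genes on the array that did. Actr2, the partner of Actr3 in the Arp2/3 complex, was not analysed here.

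RNA was hybridised to Affymetrix Mouse Gene 1.0 ST arrays. The cells were MLg 2908, a wild type (WT) lung fibroblast line from newborn mice of strain ddY, plated on top of a 3D collagen matrix. The invading fraction had moved into the matrix, and the non-invading fraction had stayed on it. There were 5 invading and 5 non-invading samples at 96 hours, and 4 invading and 4 non-invading samples at 72 hours. The study describes the invasion of these cells as spontaneous and the legend of its array heat maps defines a mark for non-treated cells, whereas the treatment entry, the same for every sample, also mentions TGFB1, which no title does. All samples come from 1 cell line, and the labels call them biological replicates without saying how cultures were separated, so p-values measure the spread between these samples.

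Invadopodia are actin-rich protrusions with which cells digest and enter matrix. At such sites the kinase Src phosphorylates the scaffolds TKS5 and TKS4, the adaptor NCK1 recruits N-WASP with its partner WIP, and cortactin stabilises the branches that the Arp2/3 complex forms. Fascin bundles filaments into stiff cores, and the membrane protease MT1-MMP cuts collagen at the tip.

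Defining markers of the labelled cell type were high, except for Thy1. Col1a1, Col1a2, Col3a1, Pdgfra, Pdgfrb, Vim, Dcn, Lum and S100a4 lay between 11.6 and 13.6 log2 units in all 18 samples, and Thy1 lay between 5.6 and 6.46. The mean of 8 epithelial markers was 5.83 to 5.94 in invading and 5.73 to 5.85 in non-invading samples at 96 hours. At 72 hours it was 5.96 to 6.12 in invading and 5.8 to 5.99 in non-invading samples. The means of the endothelial markers stayed between 5.38 and 5.75, and that of 7 leukocyte markers was 5.65 to 5.85 in invading and 5.49 to 5.64 in non-invading samples at 96 hours. At 72 hours the leukocyte mean was 5.76 to 5.81 in invading and 5.62 to 5.72 in non-invading samples. For comparison, the median of all probe sets in a sample lay between 6.46 and 6.65. Single markers of these lists reached higher than their means, such as Krt8 at 7.07 to 8.05 and Cd68 at 6.56 to 7.78. Of the 10 fibroblast markers, Col1a1, Col1a2, Col3a1 and S100a4 were lower in invading cells at both times, with log2 ratios of -0.35 to -0.20, and Pdgfrb was higher at 72 hours (log2 0.27). Of these, Col3a1 alone stayed lower at either time when arrays were centred on their median. After a second quantile normalization Col1a1, Col1a2, Col3a1 and S100a4 all stayed lower at both times, and Pdgfra joined them at 96 hours. Invading cells at 96 hours had higher levels of 3 of 8 epithelial and 2 of 7 leukocyte markers by the test given below. At 72 hours they had higher levels of 1 epithelial marker. The epithelial ones were Epcam, Cdh1 and Krt8 at 96 hours (ratios 1.13, 1.11 and 1.25) and Krt8 at 72 hours (1.45). The leukocyte ones were Cd68 and Lyz2 (ratios 1.48 and 1.33). Of 7 smooth muscle and pericyte markers, which include Acta2 at 12.5 to 13.2, 3 were higher and 1 was lower in invading cells at 96 hours, and 2 were lower at 72 hours. None of the 7 endothelial markers passed in limma, where 1 at 96 hours and 0 at 72 hours had an unadjusted p under 0.05. For all genes the share called higher in invading cells was 16.7% at 96 hours and 13.0% at 72 hours, and the share called lower was 14.7% at 96 hours and 13.5% at 72 hours. After centring, higher calls at 96 hours came to 4 epithelial, 7 leukocyte, 5 endothelial and 4 fibroblast markers, and after a second quantile normalization to 4, 6, 5 and 1 in the same order. At 72 hours either scaling gave 4 epithelial, 3 leukocyte and 3 endothelial markers. Higher calls over all 19938 genes rose as well, to 9120 at 96 hours after centring and 7695 after quantile normalization. The same counts at 72 hours were 5030 after centring and 5043 after quantile normalization. The part of these markers in the results was not tested.

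Among the members the highest ratio of invading to non-invading cells at both times was that of Sh3pxd2b, and the lowest was that of Nck1. Their promoter windows are printed for that reason, from RefSeq on build GRCm38.p6. Each runs from 250 bases before to 50 bases after a start site, which need not be the first base of the gene. The record of Sh3pxd2b begins at 32347773, upstream of the start site of its window. The Sh3pxd2b window is chr11:32347590-32347889 on the plus strand, and the Nck1 window printed is chr9:100546085-100546384 on the minus strand. Nck1 has a second window in the table, chr9:100506807-100507106 on the minus strand, which held no match to the motifs searched. Both printed windows run 5′ to 3′ along the gene, and the capitals mark GGAATG, the core recognised by TEAD factors, on either strand.
Sh3pxd2b: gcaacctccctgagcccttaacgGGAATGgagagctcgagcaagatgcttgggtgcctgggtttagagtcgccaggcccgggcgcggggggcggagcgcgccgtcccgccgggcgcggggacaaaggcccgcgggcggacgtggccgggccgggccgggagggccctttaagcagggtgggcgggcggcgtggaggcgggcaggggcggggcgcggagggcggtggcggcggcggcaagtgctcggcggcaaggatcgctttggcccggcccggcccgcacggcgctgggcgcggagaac
Nck1: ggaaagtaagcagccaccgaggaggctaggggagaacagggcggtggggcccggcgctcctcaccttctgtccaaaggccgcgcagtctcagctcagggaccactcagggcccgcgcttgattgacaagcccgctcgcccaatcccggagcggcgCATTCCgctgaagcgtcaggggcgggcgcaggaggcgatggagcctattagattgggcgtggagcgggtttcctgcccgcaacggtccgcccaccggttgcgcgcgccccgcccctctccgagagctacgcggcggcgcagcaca
The motif began 227 bases before the start site of the Sh3pxd2b window on the strand of the gene. In the printed window of Nck1 the motif lay on the opposite strand, and its capitals, read along the gene, began 95 bases before the start site. Windows were given for 8 of the 10 genes, 11 windows in all, and 2 of the 11 held GGAATG, against 14.7% of all 32851 windows in the table. The CArG box, the motif of serum response factor, was searched on both strands as well and lay in none of the 11 windows and in 1.63% of all windows. Cttn and Sh3pxd2a had no entry. A match describes the letters of a window only.

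At 96 hours 5 of the 9 measured genes differed between the fractions, and at 72 hours 4 of 9 did. Sh3pxd2b, Cttn and Src were up-regulated in invading cells at both times, Actr3 was up-regulated at 96 hours, and Nck1 was down-regulated at both times. No change passed the test for Sh3pxd2a, Wasl, Wipf1 or Fscn1. A gene was called regulated at a false discovery rate under 10%, that is an adjusted p under 0.10 in limma over all 35556 probe sets. At 96 hours 4 of the 9 genes were up- and 1 was down-regulated, where 31.4% of all genes were regulated (16.7% up and 14.7% down). At 72 hours 3 were up- and 1 was down-regulated, where 26.5% of all genes were regulated (13.0% up and 13.5% down). In 4 of the 9 genes the samples of the fractions did not overlap at 96 hours (18.2% of all genes), and in 3 at 72 hours (24.8%). The median log2 ratio of the 9 genes was 0.11 at 96 hours and 0.02 at 72 hours, against 0.02 and 0.04 over all genes.

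**Figure D1:**
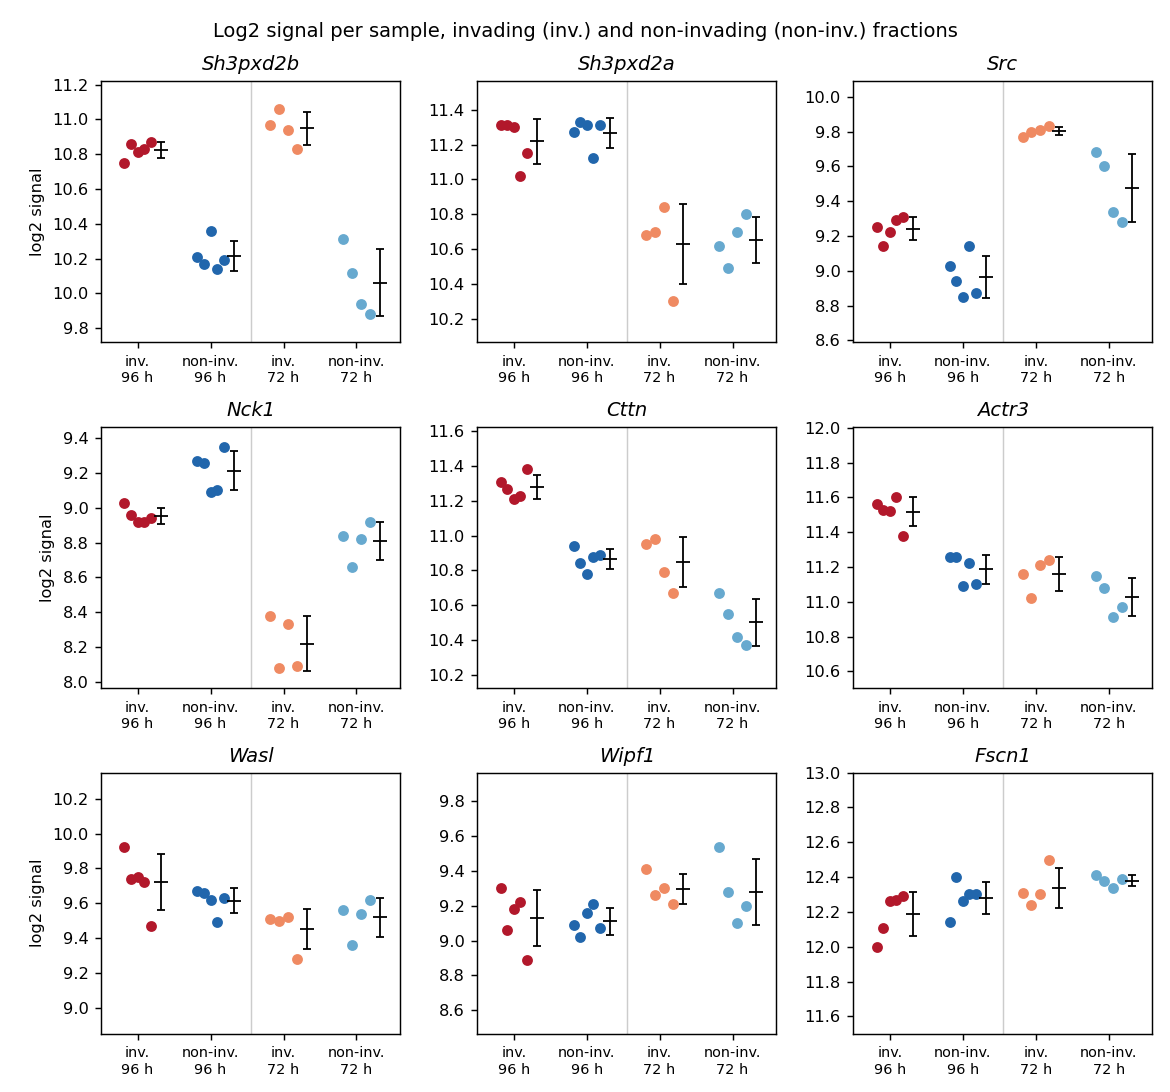
Log2 signal of the 9 measured genes in each of the 18 samples, with invading and non-invading samples at 96 hours on the left of each panel and at 72 hours on the right. Bars beside the points are the mean and SD, and every axis spans the same range. The invading samples of Sh3pxd2b, between 10.75 and 11.06, lie above all non-invading samples.

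The scaffold genes parted. Sh3pxd2b encodes TKS4, an adaptor of podosomes and invadopodia that is needed for full matrix degradation. At 96 hours it read 10.75, 10.86, 10.81, 10.83 and 10.87 log2 units in the invading samples, against 10.21, 10.17, 10.36, 10.14 and 10.19 in the non-invading samples. At 72 hours it read 10.97, 11.06, 10.94 and 10.83 in the invading samples, against 10.31, 10.12, 9.94 and 9.88 in the non-invading samples. The fractions did not overlap at either time. The ratio was 1.53 at 96 hours (log2 0.61, SE 0.054, adjusted p = 4.4e-05) and 1.85 at 72 hours (log2 0.89, SE 0.103, adjusted p = 0.001). Of all genes, 99.0% had a lower ratio at 96 hours and 99.8% at 72 hours. As the RNA is that of a mixed fraction, a changed share of expressing cells and changed RNA per cell cannot be told apart.

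Sh3pxd2a encodes TKS5, the paralogous scaffold with which invadopodia form. The invading samples read 11.31, 11.31, 11.3, 11.02 and 11.15 at 96 hours, against 11.27, 11.33, 11.31, 11.12 and 11.31 in the non-invading samples. The invading samples read 10.68, 10.7, 10.84 and 10.3 at 72 hours, against 10.62, 10.49, 10.7 and 10.8 in the non-invading samples. The fractions overlapped at both times, whereas all samples at 96 hours lay above all samples at 72 hours. The ratio of invading to non-invading was 0.966 at 96 hours (95% interval 0.868 to 1.08, adjusted p = 0.65) and 0.985 at 72 hours (0.817 to 1.19, adjusted p = 0.92). A dimmer probe set of the gene did not pass the test either, with log2 ratios of 0.08 at 96 hours and 0.14 at 72 hours (adjusted p = 0.47 and 0.52).

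Src, the tyrosine kinase that starts invadopodia, was up-regulated in the invading fraction. Its values at 96 hours were 9.25, 9.14, 9.22, 9.29 and 9.31 in the invading samples, against 9.03, 8.94, 8.85, 9.14 and 8.87 in the non-invading samples. Its values at 72 hours were 9.77, 9.8, 9.81 and 9.83 in the invading samples, against 9.68, 9.6, 9.34 and 9.28 in the non-invading samples. The fractions met at 9.14 at 96 hours and did not overlap at 72 hours. The ratio was 1.21 at 96 hours (log2 0.27, SE 0.066, adjusted p = 0.0098) and 1.26 at 72 hours (log2 0.33, SE 0.094, adjusted p = 0.038).

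Nck1, which encodes an SH2 and SH3 adaptor between phosphorylated scaffolds and N-WASP, was the member down-regulated in invading cells. At 96 hours it read 9.03, 8.96, 8.92, 8.92 and 8.94 in the invading samples, against 9.27, 9.26, 9.09, 9.1 and 9.35 in the non-invading samples. At 72 hours it read 8.38, 8.08, 8.33 and 8.09 in the invading samples, against 8.84, 8.66, 8.82 and 8.92 in the non-invading samples. The invading samples lay below the non-invading ones at both times, without overlap. The ratio was 0.836 at 96 hours (log2 -0.26, SE 0.062, adjusted p = 0.0098) and 0.664 at 72 hours (log2 -0.59, SE 0.093, adjusted p = 0.0032). The 96 hour call did not pass when each array was centred on its median (log2 -0.14, adjusted p = 0.10), a scaling under which the median gene stood at 0.143 instead of 0.024.

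Cttn encodes cortactin, which binds the Arp2/3 complex and holds filament branches. The invading samples read 11.31, 11.27, 11.21, 11.23 and 11.38 at 96 hours, against 10.94, 10.84, 10.78, 10.88 and 10.89 in the non-invading samples. The invading samples read 10.95, 10.98, 10.79 and 10.67 at 72 hours, against 10.67, 10.55, 10.42 and 10.37 in the non-invading samples. The fractions did not overlap at 96 hours, and at 72 hours the lowest invading and the highest non-invading sample met at 10.67. Cortactin RNA was 1.33 times as high in invading cells at 96 hours (log2 0.41, SE 0.052, adjusted p = 0.00028) and 1.27 times at 72 hours (log2 0.35, SE 0.096, adjusted p = 0.034).

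Actr3 encodes ARP3, an actin-related subunit that seeds the daughter filament. Its values at 96 hours were 11.56, 11.53, 11.52, 11.6 and 11.38 in the invading samples, against 11.26, 11.26, 11.09, 11.22 and 11.1 in the non-invading samples. Its values at 72 hours were 11.16, 11.02, 11.21 and 11.24 in the invading samples and 11.15, 11.08, 10.91 and 10.97 in the non-invading samples. Without overlap at 96 hours, the ratio was 1.26 (log2 0.33, SE 0.06, adjusted p = 0.0021). The fractions overlapped at 72 hours, with a ratio of 1.09 (95% interval 0.966 to 1.23, adjusted p = 0.30).

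For the nucleation promoter and its partner no difference between the fractions passed the test. Wasl, which encodes N-WASP, the activator of the Arp2/3 complex, read 9.47 to 9.92 in invading and 9.49 to 9.67 in non-invading samples at 96 hours. At 72 hours Wasl read 9.28 to 9.52 in invading and 9.36 to 9.62 in non-invading samples, and the lowest invading sample stood apart from the other 3 at 9.5 to 9.52. Its ratio was 1.08 at 96 hours (95% interval 0.957 to 1.21, adjusted p = 0.34) and 0.955 at 72 hours (0.837 to 1.09, adjusted p = 0.63). At 96 hours Wasl passed the test when arrays were centred on their median (log2 0.23, adjusted p = 0.034) or without invading replicate 5 (log2 0.17, adjusted p = 0.076).

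Wipf1 encodes WIP, which binds N-WASP and keeps it at sites of assembly. It read 8.89 to 9.3 in invading and 9.02 to 9.2 in non-invading samples at 96 hours, and 9.21 to 9.41 in invading and 9.1 to 9.54 in non-invading samples at 72 hours. Its log2 ratio was 0.02 at both times, with 95% intervals of -0.15 to 0.19 at 96 hours and -0.21 to 0.24 at 72 hours (adjusted p = 0.86 and 0.93). Fscn1 encodes fascin. It read 12 to 12.29 in invading and 12.14 to 12.4 in non-invading samples at 96 hours, and 12.24 to 12.5 in invading and 12.34 to 12.41 in non-invading samples at 72 hours. The ratio for fascin was 0.937 at 96 hours (95% interval 0.84 to 1.05, adjusted p = 0.38) and 0.973 at 72 hours (0.87 to 1.09, adjusted p = 0.74). At 96 hours Fscn1 passed the test after quantile normalization was applied again, at a log2 ratio of -0.16 (adjusted p = 0.089).

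**Figure D2:**
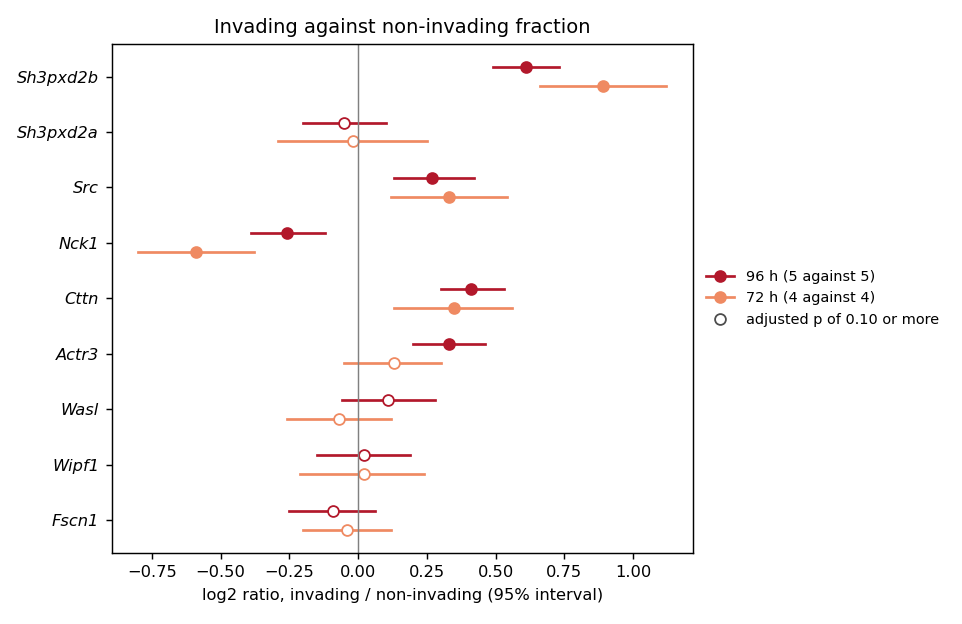
Log2 ratio of invading to non-invading samples for each gene at 96 hours (5 against 5) and 72 hours (4 against 4), with 95% intervals. Filled points passed the test. Sh3pxd2b, Cttn and Src lie right of 0 and Nck1 left of 0 at both times, and Actr3 is filled at 96 hours.

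The split between up- and down-regulated members at 96 hours moved with some scalings of the arrays and not with others. At 96 hours it was 4 up and 1 down as deposited, 5 up and 0 down after centring on the median (Nck1 left the calls and Wasl joined them), and 4 up and 2 down after a second quantile normalization. Over all regulated genes at 96 hours 53.1% were up-regulated as deposited, 85.2% after centring and 75.5% after quantile normalization. At 72 hours the members stayed at 3 up and 1 down under both, while the share of all regulated genes that were up-regulated was 49.0% as deposited, 73.0% after centring and 68.4% after quantile normalization. Centring on the median without the unnamed low-numbered probe sets was a step chosen after seeing the data. It left the members at 4 up and 1 down at 96 hours and 3 up and 1 down at 72 hours. Of all regulated genes 50.8% were then up-regulated at 96 hours and 48.5% at 72 hours.

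Most members also differed between 96 and 72 hours within a fraction. Nck1, Cttn and, by its brightest probe set, Sh3pxd2a were higher at 96 hours in both fractions, and Src was lower at 96 hours in both. Actr3 and Wasl were higher at 96 hours in the invading fraction. Of the 9 genes, 5 were up- and 1 was down-regulated in invading cells, where 34.8% of all genes were regulated (18.2% up and 16.7% down), and 3 were up- and 1 was down-regulated in non-invading cells, where 27.6% were (15.4% up and 12.2% down). Samples of the times did not overlap for 5 of the 9 genes in the invading fraction (23.6% of all genes) and for 4 in the non-invading fraction (20.0%). The sources used here give no hybridisation batch, so a batch that follows time cannot be told apart from time. These comparisons use the same samples as those between the fractions.

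Nck1 had the largest change with time among the members in invading cells. There it was 1.66 times as high at 96 as at 72 hours (log2 0.73, SE 0.075, adjusted p = 2.9e-06), and in non-invading cells 1.32 times (log2 0.40, SE 0.075, adjusted p = 0.0013). From the values above, all samples at 96 hours lay above all samples at 72 hours within each fraction. The invading samples at 96 hours, at 8.92 to 9.03, overlapped with the non-invading samples at 72 hours, at 8.66 to 8.92.

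Src had the opposite course. It was lower at 96 than at 72 hours in invading cells, with a ratio of 0.677 (log2 -0.56, SE 0.079, adjusted p = 5.5e-05), and in non-invading cells, with a ratio of 0.704 (log2 -0.51, SE 0.079, adjusted p = 0.00027). The times did not overlap in either fraction. In the order of its groups Src was highest in invading cells at 72 hours (mean 9.80 ± 0.03, SD, n = 4), and then in non-invading cells at 72 hours (9.47 ± 0.19, n = 4), invading cells at 96 hours (9.24 ± 0.07, n = 5) and non-invading cells at 96 hours (8.97 ± 0.12, n = 5). Among neighbours in that order, overlap was missing only between the first and the second group.

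Sh3pxd2a rose at 96 hours by its brightest probe set, to 1.5 times the level at 72 hours in invading cells (log2 0.59, SE 0.096, adjusted p = 0.00023) and 1.53 times in non-invading cells (log2 0.62, SE 0.096, adjusted p = 0.00028). Its dimmer probe set did not show this. There the ratio of 96 to 72 hours was 0.997 in invading cells (95% interval 0.854 to 1.16, adjusted p = 0.99) and 1.04 in non-invading cells (0.892 to 1.22, adjusted p = 0.76). The mean of both probe sets gave log2 ratios of 0.29 in invading and 0.34 in non-invading cells. The ratios of Sh3pxd2b did not pass the test, at 0.914 in invading cells (0.817 to 1.02, adjusted p = 0.25) and 1.11 in non-invading cells (0.992 to 1.24, adjusted p = 0.19).

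Cortactin rose in both fractions, at 96 against 72 hours by a ratio of 1.35 in invading cells (log2 0.43, SE 0.072, adjusted p = 0.00029) and 1.29 in non-invading cells (log2 0.36, SE 0.072, adjusted p = 0.0019). Its means were 11.28 ± 0.07 in invading and 10.87 ± 0.06 in non-invading cells at 96 hours, and 10.85 ± 0.15 in invading and 10.50 ± 0.14 in non-invading cells at 72 hours. Non-invading cells at 96 hours and invading cells at 72 hours thus overlapped. Actr3 rose in invading cells, by 1.29 (log2 0.36, SE 0.066, adjusted p = 0.00062), and in non-invading cells its ratio was 1.11 (95% interval 1.01 to 1.23, adjusted p = 0.11). Wasl rose in invading cells by 1.2 with overlapping samples (log2 0.27, SE 0.081, adjusted p = 0.022), and its ratio in non-invading cells was 1.07 (adjusted p = 0.47). Wipf1 stood at 0.895 in invading and 0.891 in non-invading cells (adjusted p = 0.21 in both), and Fscn1 at 0.90 in invading and 0.933 in non-invading cells (adjusted p = 0.13 and 0.37). After quantile normalization was applied again all 9 genes were regulated with time in the invading fraction, 5 up and 4 down, with Sh3pxd2b, Wipf1 and Fscn1 added on the lower side (log2 -0.20, -0.22 and -0.21). Calls over all 19938 genes in that fraction moved to the lower side too, with 3100 up and 3736 down. The share that was higher at 96 hours was 45.3% there, against 52.2% as deposited. Centring moved this share the other way, to 60.3% on the array median and 59.5% without the unnamed low-numbered probe sets. In the non-invading fraction the second quantile normalization gave 3 up and 2 down among the members. Over all genes regulated with time in that fraction 55.9% were higher at 96 hours as deposited and 43.0% after quantile normalization. The share was 51.0% after centring on the array median and 67.1% after centring without the unnamed low-numbered probe sets. That last step was chosen after seeing the data.

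**Figure D3:**
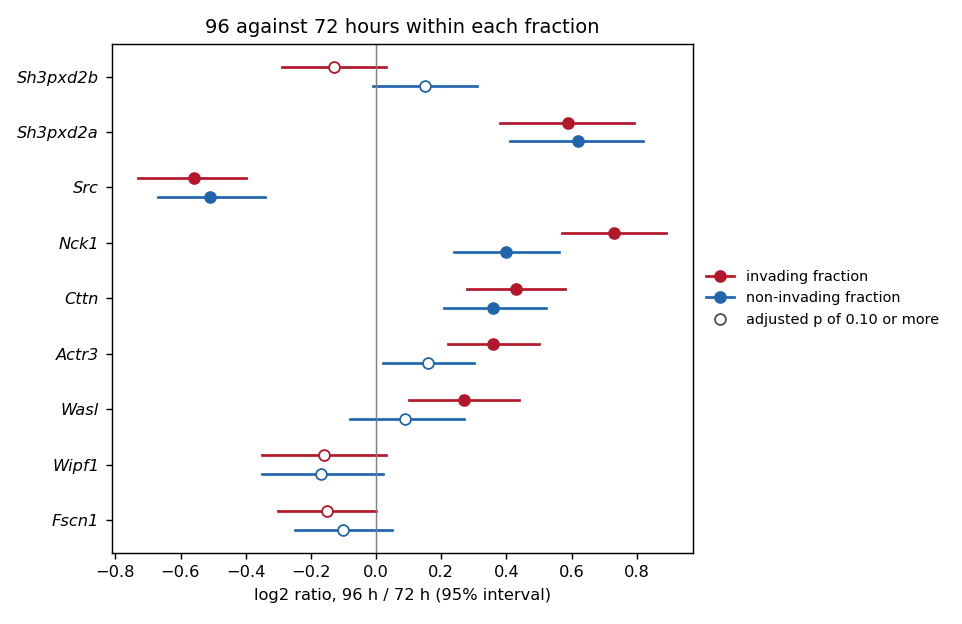
Log2 ratio of 96 to 72 hours for each gene in the invading and in the non-invading fraction, with 95% intervals from 1 fit of all 18 samples. Filled points passed the test. Nck1, Sh3pxd2a and Cttn lie right of 0 and Src left of 0 in both fractions.

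Whether the ratio of invading to non-invading cells differed between 96 and 72 hours was tested directly. None of the 9 genes passed in limma (0.015% of all genes did), and 3 of the 9 had an unadjusted p under 0.05, which were Nck1, Sh3pxd2b and Actr3. For Nck1 the log2 ratio was higher at 96 hours by 0.33 (95% interval 0.11 to 0.56, adjusted p = 0.37), and for Actr3 by 0.21 (0.01 to 0.40, adjusted p = 0.56). For Sh3pxd2b the difference was -0.28, lower at 96 hours (-0.51 to -0.05, adjusted p = 0.47). The call of Actr3 at 96 and not at 72 hours was therefore not shown to be a difference between the times.

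The other genes of actin assembly and invadopodia were taken from 6 lists, of which 118 of 126 genes were measured, members included. Outside the 9 members, 27 of 109 genes were up- and 16 down-regulated in invading cells at 96 hours, or 39.4% against 31.4% of all genes. At 72 hours 17 were up- and 16 down-regulated, or 30.3% against 26.5% of all genes. The median log2 ratio of the 109 genes was 0.03 at each time, beside 0.02 at 96 hours and 0.04 at 72 hours over all genes. Of these genes 14 were up- and 7 down-regulated at both times, and none was regulated in opposite directions. With the members, 31 were up- and 17 down-regulated at 96 hours as deposited, 62 and 6 after centring on the median, and 43 and 22 after quantile normalization. At 72 hours they were 20 and 17 as deposited, 33 and 11 after centring, and 34 and 18 after quantile normalization. Centring without the unnamed low-numbered probe sets gave 28 and 17 at 96 hours, and 16 and 14 at 72 hours. Over all 19938 genes 9120 were up and 1579 down at 96 hours after centring, and 7695 and 2494 after quantile normalization. The all-gene counts at 72 hours were 5030 and 1865 after centring, and 5043 and 2328 after quantile normalization. These are the background of the rescaled counts of each list below.

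In the Arp2/3 complex 4 of 7 measured subunit genes were up- and 2 down-regulated at 96 hours. At 72 hours 1 was up- and 1 down-regulated. With Actr3 counted, the regulated share was 85.7% at 96 hours (31.4% of all genes) and 28.6% at 72 hours (26.5%). Arpc4, a core subunit, was up-regulated in invading cells at both times, with ratios of 1.29 at 96 hours (adjusted p = 0.00096) and 1.2 at 72 hours (adjusted p = 0.045). Arpc5 was down-regulated at both times, with ratios of 0.907 at 96 hours (adjusted p = 0.084) and 0.794 at 72 hours (adjusted p = 0.039). Its paralog Arpc5l, picked out after its values were seen, was up-regulated at 96 hours with a ratio of 1.13 (adjusted p = 0.093). Arpc1b was up-regulated at 96 hours with a ratio of 1.14 (adjusted p = 0.017), and Arpc2 down-regulated with a ratio of 0.923 (adjusted p = 0.066). Centring on the array median left 4 up- and 0 down-regulated subunits at 96 hours, with log2 ratios of -0.02 for Arpc5 and 0.00 for Arpc2, and quantile normalization gave 4 up and 3 down. At 72 hours centring left 2 up and 0 down, and quantile normalization 2 up and 1 down.

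Among nucleation promoters of the WASP and WAVE families 2 of 19 genes were up- and 3 down-regulated at 96 hours. At 72 hours 2 were up- and 2 down-regulated. Members included, 26.3% were regulated at 96 hours and 21.1% at 72 hours, below the 31.4% and 26.5% of all genes. Besides Cttn, Wasf1, which encodes WAVE1, was up-regulated at 96 hours (ratio 1.21, adjusted p = 0.011), and Was, the haematopoietic relative of N-WASP, at 72 hours (ratio 1.15, adjusted p = 0.065). The level of Was was low, at a mean of 6.53 in invading and 6.33 in non-invading cells at 72 hours. The median of all probe sets in a sample lay between 6.46 and 6.65. Jmy, a nucleator and p53 cofactor, was down-regulated with ratios of 0.787 at 96 hours (adjusted p = 0.0071) and 0.715 at 72 hours (adjusted p = 0.017). Abi1, an adaptor of the WAVE complex, was down-regulated with ratios of 0.879 at 96 hours and 0.799 at 72 hours (adjusted p = 0.019 and 0.0072), and its 96 hour call did not pass after centring (log2 -0.07). The counts of this list became 12 up and 1 down after centring and 8 up and 3 down after quantile normalization at 96 hours, and 4 up and 2 down under either at 72 hours.

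Of the scaffolds, adaptors and kinases of invadopodia 9 of 28 genes were up- and 6 down-regulated at 96 hours. At 72 hours 7 were up- and 3 down-regulated. The regulated share, members included, was 53.6% at 96 hours (31.4% of all genes) and 35.7% at 72 hours (26.5%). Mmp14, which encodes MT1-MMP, the collagenase delivered to invadopodia, read 12.54 ± 0.05 in invading and 11.99 ± 0.13 in non-invading cells at 96 hours (ratio 1.46, adjusted p = 0.00021), and 12.65 ± 0.15 in invading and 12.15 ± 0.05 in non-invading cells at 72 hours (ratio 1.41, adjusted p = 0.0044). Dbnl, an actin-binding Src substrate, was up-regulated with ratios of 1.22 at 96 hours and 1.32 at 72 hours (adjusted p = 0.014 and 0.026). Ptk2b, a focal adhesion type kinase, was up-regulated at 96 hours (ratio 1.32, adjusted p = 0.0022). The adaptor gene Crk was down-regulated with ratios of 0.832 at 96 hours and 0.722 at 72 hours (adjusted p = 0.021 and 0.0083). Its 96 hour call did not pass after centring (log2 -0.15). Other adaptor genes, picked out after their values were seen, did not go the same way. Grb2 was up-regulated with ratios of 1.18 at 96 hours and 1.25 at 72 hours (adjusted p = 0.03 and 0.0078). Nck2, the paralog of Nck1, did not pass the test, with ratios of 0.979 at 96 hours and 1.04 at 72 hours (adjusted p = 0.78 and 0.69). The Src family kinase Fyn was down-regulated at 96 hours (ratio 0.809, adjusted p = 0.0015), as was the Src-binding filament protein Afap1 (ratio 0.797, adjusted p = 0.01). The phosphatase gene Ptpn12 was down-regulated at 72 hours (ratio 0.769, adjusted p = 0.018). After centring 15 genes of this list were up- and 2 down-regulated at 96 hours and 9 up and 3 down at 72 hours, and after quantile normalization 11 were up and 6 down at 96 hours and 10 up and 3 down at 72 hours.

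In the list of filament bundling and elongation 3 of 15 genes were up- and 0 down-regulated at 96 hours. Those 3 also had an unadjusted p under 0.05 in limma. At 72 hours 3 were up- and 2 down-regulated. With Fscn1 counted, 20.0% were regulated at 96 hours (31.4% of all genes) and 33.3% at 72 hours (26.5%). Myo10, a motor that carries cargo to filopodial tips, was up-regulated with ratios of 1.23 at 96 hours and 1.26 at 72 hours (adjusted p = 0.056 and 0.024). The formin gene Diaph1 was up-regulated at 96 hours (ratio 1.24, adjusted p = 0.012), and the formin genes Daam1 and Diaph3 were down-regulated at 72 hours (ratios 0.719 and 0.731, adjusted p = 0.0052 and 0.0091). Lcp1, which encodes the bundling protein L-plastin, was up-regulated at 72 hours (ratio 1.34, adjusted p = 0.037). At 96 hours centring gave 5 up and 0 down, and quantile normalization 4 up and 1 down. Either scaling gave 5 up and 2 down at 72 hours.

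In the list of filament turnover and capping 7 of 27 genes were up- and 3 down-regulated at 96 hours. At 72 hours 5 were up- and 5 down-regulated. The regulated share was 37.0% at each time, against 31.4% of all genes at 96 hours and 26.5% at 72 hours. The severing protein gene Gsn was up-regulated with ratios of 1.29 at 96 hours and 1.28 at 72 hours (adjusted p = 0.0016 and 0.029). Coro1a, a coronin, was up-regulated with ratios of 1.34 at 96 hours and 1.27 at 72 hours (adjusted p = 0.00053 and 0.027), and Twf2, a twinfilin, with ratios of 1.25 at 96 hours and 1.28 at 72 hours (adjusted p = 0.022 and 0.026). Cfl2, a cofilin, was down-regulated with ratios of 0.811 at 96 hours and 0.693 at 72 hours (adjusted p = 0.004 and 0.0025). Twf1, the other twinfilin, was down-regulated at 72 hours (ratio 0.794, adjusted p = 0.0084), and the thymosin gene Tmsb10 at 96 hours (ratio 0.85, adjusted p = 0.038), a call that did not pass after centring (log2 -0.12). Centring gave 13 up and 1 down at 96 hours and 8 up and 2 down at 72 hours. Quantile normalization gave 8 up and 6 down at both times. For Arpc1b, Cfl2, Dbnl, Diaph3, Myo10 and Ptk2b 1 sample of a group stood apart from the rest.

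**Figure D4:**
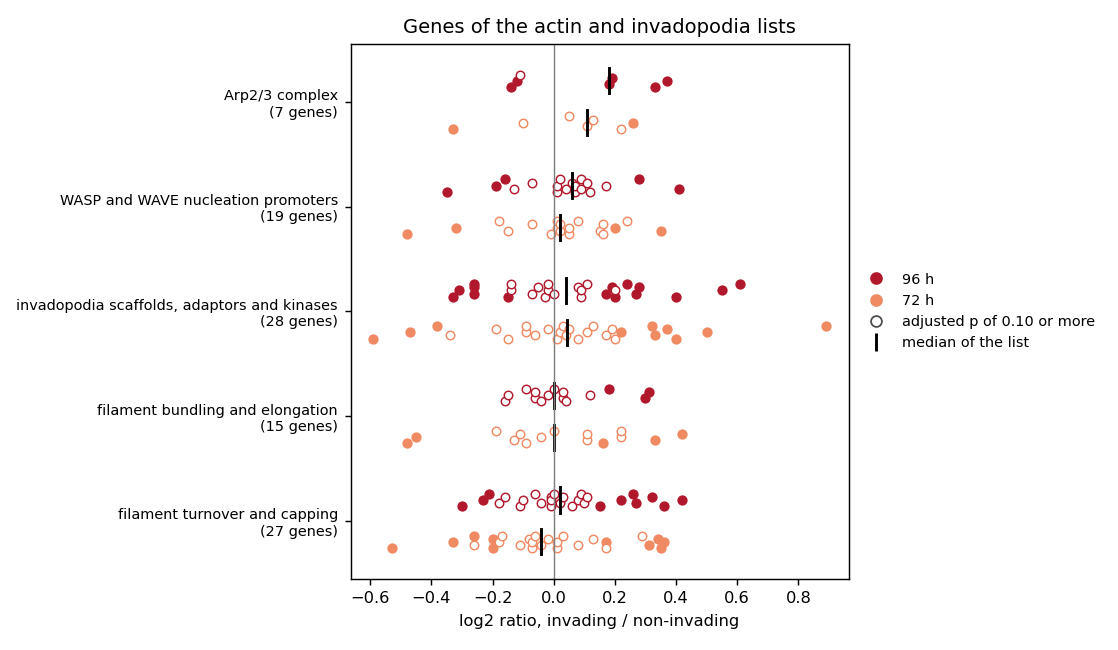
Log2 ratio of invading to non-invading samples for the measured genes of the lists described, members included, at 96 and 72 hours. Each point is a gene, filled points passed the test, and black bars are the median of the list, between -0.04 and 0.18.

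The genes whose pattern over the 18 samples was most like that of a member were found for the 3 members with the widest range of group means. Likeness was the root mean square difference of the log2 values after each gene was centred on its own mean. For Nck1, with group means spread over 0.99 log2 units, they were Ergic2 (0.0781), Srek1ip1 (0.0884) and Cyp39a1 (0.0956). For Sh3pxd2b, spread over 0.89, they were Mrps18a (0.127), Ampd2 (0.138) and Ccdc9 (0.138). For Src, spread over 0.84, they were Atox1 (0.0716), Vars (0.0796) and Ap2a1 (0.0809). None of these 9 genes is in the lists of actin and invadopodia genes.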

How the data were processed

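The data are 18 arrays of the Affymetrix type Mouse Gene 1.0 ST, 1 per sample. The authors corrected the background, normalized between arrays (sketch-quantile) and summarised probe sets by RMA, for which the submitters' processing notes name Expression Console 1.2, and deposited log2 values, which were used as they stand. They cover 35556 probe sets and run from 2.94 to 14.7. Groups came from the sample titles. Fractions were compared within each time by moderated tests of group means in limma 3.58.1 (R 4.3.3), with 1 fit per time and no covariates. Changes with time, and the difference in ratio between times, were taken from 1 fit of all 18 samples. P-values were adjusted by Benjamini and Hochberg over all probe sets, and regulated means an adjusted p under 0.10, after the methods of the study. The number of arrays limits the precision.

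Genes were named through the platform annotation, in which 21789 probe sets had 1 symbol, 1621 several and 12146 none. Where several 1-symbol probe sets existed, the one with the highest mean over all samples stood for the gene. Levels of different genes were not tested against each other. The named genes are the 10 members, of each list up to 2 genes with the highest and up to 2 with the lowest ratio among those regulated at each time, and 3 genes most like each of 3 members. Arpc5l, Grb2 and Nck2 were named outside this rule. The members and lists were chosen with earlier results of these data known. One list enters the totals over lists but is itself not reported here. Alternatives were 2 other scalings of the arrays, dropping probe sets that never exceed 100 on the linear scale, testing 1-symbol probe sets alone, an intensity trend with robust estimation, the replicate number as a block, 1 fit of all samples, the mean of a gene's probe sets, an adjusted p under 0.05 and leaving out each sample. Centring without the 6617 unnamed low-numbered probe sets was added after the data were seen. Promoter windows came from RefSeq on GRCm38.p6.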

Additional observations from a re-analysis of the deposited data

Results flagged for a closer look

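In 9 of the 164 groups examined, 1 sample of the group stood apart from the rest, judged by Dixon's 95% limit on its gap to the nearest sample over the range of the group. Chance alone would do so in about 1 of 20 groups. Of the 36 groups of the members, 2 were affected, both of Wasl. It read 9.28 in invading replicate 4 at 72 hours, against 9.5 to 9.52 in the other 3 samples, and 9.49 in non-invading replicate 4 at 96 hours, against 9.62 to 9.67 in the other 4.

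The other 7 groups belonged to genes of the lists. Dbnl read 10.17 in invading replicate 5 at 96 hours, against 9.88 to 9.96 in the others of that group, and Diaph3 read 8.01 in the same sample, against 8.31 to 8.39. Ptk2b read 7.43 in invading replicate 3 at 96 hours, against 7.55 to 7.59 in the others, and 7.4 in non-invading replicate 1 at 96 hours, against 7.05 to 7.12. Arpc1b read 12.21 in non-invading replicate 4 at 96 hours, against 12.01 to 12.05. In non-invading replicate 4 at 72 hours Cfl2 read 10.82, against 10.71 to 10.72, and Myo10 read 11.61, against 11.47 in the 3 others.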

How the results depend on the processing

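The counts of regulated members and of regulated list genes stayed within 1.5 times their values under all 137 alternatives run. Of 909 alternatives to the log2 ratios of single members, 860 kept direction and side of the threshold. Of the others, 18 brought a call, 1 (Nck1 at 96 hours, given above) lost one, and 30 turned the sign of a ratio, none of which was regulated. The cause was not tested. Sh3pxd2b, Cttn and Src kept their calls at both times, as did Actr3 at 96 hours and Nck1 at 72 hours, in every alternative, with adjusted p up to 0.099 for Src and 0.09 for Cttn at 72 hours.

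At 96 hours the sign turned on centring for Sh3pxd2a (0.07) and Fscn1 (0.03), and with the mean of both probe sets for Sh3pxd2a (0.01). At 72 hours it turned on centring for Sh3pxd2a (0.06), Wasl (0.01) and Fscn1 (0.04), on quantile normalization for Sh3pxd2a (0.00), and with the mean of both probe sets for Sh3pxd2a (0.06). For the difference between times it turned on centring for Sh3pxd2a (0.01), and for Wipf1 on quantile normalization (-0.01) and on centring without the unnamed probe sets (0.00). Leaving out 1 sample gave -0.09 to 0.09 for Sh3pxd2a and -0.04 to 0.10 for Wipf1 at 72 hours, and -0.02 to 0.08 for Wipf1 at 96 hours. Without 1 sample the change with time passed for Fscn1 in invading cells (-0.19 without invading 72 hour replicate 2, -0.18 without invading 96 hour replicate 5). In non-invading cells it passed for Sh3pxd2b (0.23) and Actr3 (0.20) without 72 hour replicate 1, and for Actr3 without 96 hour replicate 3 or 5 (0.18 each). For the difference between times leaving out 1 sample gave -0.14 to 0.04 for Sh3pxd2a, -0.08 to 0.07 for Wipf1, -0.09 to 0.00 for Fscn1 and -0.12 to 0.01 for Src.

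Leaving out 1 sample gave 5 to 6 regulated members at 96 hours and 4 at 72 hours, 6 to 7 with time in invading and 4 to 6 in non-invading cells. It gave 39 to 47 regulated list genes at 96 hours and 28 to 39 at 72 hours. Replicate numbers are shared between the fractions. Same-numbered samples correlated at 0.049 to 0.169 at 96 hours and at -0.075 to 0.087 at 72 hours after the group means were removed, and 2 of 5 and 0 of 4 pairs were above 0.1. Invading samples correlated best with the non-invading sample of their own number in 4 of 5 pairs at 96 hours and 1 of 4 at 72 hours, a hint from the data at 96 hours. The study used paired tests for some genes on these arrays but names no pairing for its limma test, and the labels do not say what a number shares, so the numbers were not taken to pair the samples. With the replicate number as a block the regulated members were 5 at 96 hours, 4 at 72 hours, 6 with time in invading cells, 4 in non-invading cells and 0 for the difference between times, and the regulated list genes were 52 at 96 hours and 32 at 72 hours. For the changes with time the block joined same-numbered samples of 72 and 96 hours within a fraction. Those counts therefore do not bear on a pairing of the fractions.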
